A study of Mus musculus with 75 samples.

Results

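The genes described here were 10 genes of the contractile and filament apparatus of myofibroblasts, namely Acta2, Tagln, Tagln2, Myl9, Cnn1, Cnn2, Tpm1, Tpm2, Actn1 and Vim. They were taken by symbol from a table of 32245 genes, and all 10 were found in it. Their mRNA was counted in 75 libraries of whole mouse kidney, taken 3 days after unilateral ureter obstruction (UUO), in which 1 ureter is tied and the other kidney of the animal serves as the contralateral control (CL). Adult mice of both sexes and, in the genetic models, of mixed background were used, and all received the analgesic carprofen.

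The libraries fell into 12 groups in 3 experiments. In the antibody experiment, wild-type mice received ABTAA, an antibody that binds angiopoietin-2 (ANGPT2) and thereby activates the endothelial receptor TIE2 (labelled ABT, 7 CL and 7 UUO libraries), or the same dose of a human IgG Fc control (IgG, 8 and 8). In the Veptp experiment, the floxed TIE2 phosphatase gene Veptp (symbol Ptprb) was deleted in endothelium by tamoxifen-inducible Cdh5-CreERT2 (VeKO, 6 CL and 8 UUO), and the controls were noninduced wt/lox Cdh5-CreERT2 mice (VeWT, 7 and 8). In the Pdgfb experiment, floxed Pdgfb, the gene of a platelet-derived growth factor, was deleted in the whole body by tamoxifen-inducible Actb-CreERT2 (PbKO, 4 and 4), and the controls were Cre-negative (PbWT, 4 and 4). The PbWT CL group included kidneys of 2 sham-operated mice, which the labels do not mark.

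Myofibroblasts are the matrix-producing cells of a scarring kidney, and they arise mainly from perivascular fibroblasts and pericytes. When activated they assemble stress fibers like those of smooth muscle, in which α-smooth muscle actin (Acta2) slides on myosin that is regulated by light chains (Myl9), while tropomyosins (Tpm1, Tpm2), calponins (Cnn1, Cnn2) and transgelins (Tagln, Tagln2) line or bundle the actin and α-actinin (Actn1) crosslinks it. Vimentin (Vim) is the intermediate filament of mesenchymal cells. Many of these genes are also transcribed in vascular smooth muscle, and Tagln2, Cnn2, Tpm1, Actn1 and Vim in many other cells, including leukocytes or injured epithelium. A known route of control runs from actin assembly through myocardin-related factors (MRTF) to serum response factor (SRF), which binds the CArG box.

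The upstream sequences of 4 members are shown because their genes stand for the patterns described here: Acta2 and Tpm2 varied together, Myl9 did not pass the test in any comparison of UUO with CL, and Cnn2 belonged to the broadly expressed group. Each run is the RefSeq sequence (GRCm38.p6) from 250 bases before to 50 bases after the RefSeq start, 5′ to 3′ on the gene's own strand, and capitals mark CArG boxes, searched as CC and GG around 6 bases of A or T with at most 1 of the 6 being G or C. The pattern reads the same on both strands. The RefSeq start lies inside the GENCODE gene whose ends are given with each member, by 217 bases for Acta2, 211 for Tpm2, 44 for Myl9 and 16 for Cnn2. The positions are chr19:34255324-34255623, minus strand, for Acta2, chr4:43523505-43523804, minus strand, for Tpm2, chr2:156775214-156775513, plus strand, for Myl9, and chr10:79988350-79988649, plus strand, for Cnn2.

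Acta2: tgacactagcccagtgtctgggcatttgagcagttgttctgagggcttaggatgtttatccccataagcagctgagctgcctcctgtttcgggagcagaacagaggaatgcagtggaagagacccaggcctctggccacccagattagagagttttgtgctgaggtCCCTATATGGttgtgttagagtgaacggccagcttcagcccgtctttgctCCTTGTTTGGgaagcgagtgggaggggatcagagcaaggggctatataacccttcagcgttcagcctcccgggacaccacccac
Tpm2: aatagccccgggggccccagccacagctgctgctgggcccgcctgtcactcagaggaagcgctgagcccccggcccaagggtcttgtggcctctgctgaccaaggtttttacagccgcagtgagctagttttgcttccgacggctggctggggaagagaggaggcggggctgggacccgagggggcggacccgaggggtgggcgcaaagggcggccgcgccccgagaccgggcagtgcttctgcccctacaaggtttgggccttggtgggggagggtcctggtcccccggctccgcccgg
Myl9: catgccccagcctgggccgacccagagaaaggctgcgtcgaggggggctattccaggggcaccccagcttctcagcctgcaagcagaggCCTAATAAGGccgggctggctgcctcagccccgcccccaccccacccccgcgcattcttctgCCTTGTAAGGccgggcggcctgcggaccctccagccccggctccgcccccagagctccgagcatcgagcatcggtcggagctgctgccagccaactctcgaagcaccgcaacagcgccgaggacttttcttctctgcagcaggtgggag
Cnn2: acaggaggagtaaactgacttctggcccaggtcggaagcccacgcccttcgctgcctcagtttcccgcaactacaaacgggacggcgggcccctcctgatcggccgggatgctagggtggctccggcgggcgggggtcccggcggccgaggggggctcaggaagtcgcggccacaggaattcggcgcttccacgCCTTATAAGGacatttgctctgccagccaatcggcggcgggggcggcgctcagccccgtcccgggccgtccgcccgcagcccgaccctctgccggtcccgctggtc

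The strict box, with all 6 inner bases A or T, was found in 1.63% of the 32851 promoters of the table, and the box with at most 1 inner G or C in 9.98%. Of the 9 members with an entry, Myl9 held a strict box 161 bases before its RefSeq start and a relaxed one at 99 bases, Cnn2 held a strict box at 56 bases, and Acta2 held relaxed boxes at 84 and 34 bases. Only 0.822% of all promoters held 2 or more such boxes, as did 2 of the 9 members, Acta2 and Myl9. The windows of Tpm1, Tpm2, Tagln2, Cnn1, Actn1 and Vim held none, and Tagln had no entry. A match is a description of letters and no measurement of binding.

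Library totals ran from 172827 to 2341800 counts, so the members were read from few molecules: a library held between 7 and 315 counts of Acta2 (median 49) and between 1 and 285 of Actn1 (median 16). Levels are given as CPM, the count relative to the total of the library after scaling by TMM, edgeR's normalization, within each experiment, so groups are compared only within an experiment and levels are not compared between genes. The library names take 1 of 2 forms, plain (a letter and a number, 45 libraries) or split (a low line between them, 30 libraries), and the forms differed widely in the members, as described for the Veptp experiment. In that experiment the split-named CL and UUO libraries share the numbers 1 to 8, and numbers 3, 4, 7 and 8 carry one genotype on the CL kidney and the other on the UUO kidney. In 24 of the 75 libraries at least 10 counts of Xist and at least 10 counts of Y-linked genes were found together, among them all 4 PbKO UUO, 2 of 4 PbWT UUO, 2 of 4 PbWT CL and 0 of 4 PbKO CL libraries. Whether tissue of several animals or reads of several libraries were mixed in them was not tested. The targeted genes were read as whole genes, so reads outside a deleted part do not check the deletion. Ptprb was 54.7 ± 21.7 CPM (SD, n = 7) in VeWT CL and 34.6 ± 6.47 (n = 6) in VeKO CL, and 52.0 ± 28.3 (n = 8) in VeWT UUO and 33.8 ± 19.1 (n = 8) in VeKO UUO, with overlapping groups in UUO. Its log2 fold change in UUO was -0.69, and neither the CL nor the UUO difference passed the test. Pdgfb was 10.6 ± 6.84 CPM (n = 4) in PbWT CL and 19.4 ± 4.05 (n = 4) in the CL libraries labelled PbKO, a difference that did not pass the test (log2 fold change 0.78, adjusted p = 1.00). In UUO it was 53.9 ± 6.75 in PbWT and 37.8 ± 3.20 in the libraries labelled PbKO (log2 -0.47, adjusted p = 0.124), and its response to UUO was smaller in the latter by a log2 difference of -1.26 (adjusted p = 0.0458). Throughout, PbKO means the libraries so labelled.

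UUO against CL kidneys in IgG-treated mice gave the response of the 10 genes to obstruction without a TIE2 or PDGFB intervention. Of the 9 members that had enough counts to be tested, 8 were higher in the obstructed kidney, with a Benjamini-Hochberg adjusted p under 0.05 in edgeR's quasi-likelihood test, and 0 were lower. Over all genes tested, 16.3% were called higher. The share of all genes with every UUO library above every CL library was counted only in PbWT mice, where it was 16.9%. Elsewhere the absence of overlap describes the libraries and is not set against all genes. The median log2 fold change was 1.71 over the 9 members and 0.02 over all genes. In whole tissue, more cells of a type and more RNA per cell cannot be told apart.

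Among the smooth muscle genes of this set, Acta2 (ENSMUSG00000035783.9, chr19:34241090-34255590, minus strand, GRCm38, GENCODE M21) was 30.5 CPM in the lowest IgG CL library, 46.0 at the median and 68.6 in the highest. In IgG UUO it was 82.4, 152 and 214, so that every obstructed kidney lay above every CL kidney. Its log2 fold change was 1.71 ± 0.22 (standard error, SE), a 3.26-fold rise (adjusted p = 1.34e-07). Tagln (ENSMUSG00000032085.5, chr9:45929619-45936058, minus strand), a calponin-family marker of early smooth muscle differentiation, ran from 31.6 to 64.2 CPM (median 42.1) in CL and from 125 to 250 (median 184) in UUO, again with no overlap. It rose 3.87-fold (log2 1.95 ± 0.21, adjusted p = 5.48e-09). The antisense gene Gm48529 lies across Tagln on the opposite strand, and its count differed from that of Tagln by at most 7 in any library and by at most 10% in all 75 (4848 against 4915 counts in all). The values given for Tagln therefore cannot be told apart from those of its antisense partner. Tpm2 (ENSMUSG00000028464.16, chr4:43514711-43523765, minus strand), the β-tropomyosin of muscle, was 20.4 to 50.4 CPM (median 34.5) in CL and 59.5 to 119 (median 87.9) in UUO, a 2.31-fold rise without overlap (log2 1.21 ± 0.17, adjusted p = 5.50e-07).

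Myl9 did not pass in this comparison and Cnn1 had too few counts to be tested. Myl9 (ENSMUSG00000067818.6, chr2:156775420-156781658, plus strand), the regulatory light chain of smooth muscle and nonmuscle myosin, was 31.8 to 81.5 CPM (median 67.6) in IgG CL and 31.7 to 127 (median 84.8) in IgG UUO. Of the 8 obstructed kidneys, 4 exceeded every CL kidney and 1 lay under all of them, and the log2 fold change of 0.44 ± 0.19 did not pass (adjusted p = 0.0728). That lowest library, IgG UUO replicate 4, held 5 counts of Myl9, and without it the value was 0.53 and passed (adjusted p = 0.021). Cnn1 (ENSMUSG00000001349.5, chr9:22099216-22109630, plus strand), the calponin of mature smooth muscle, had at most 17 counts in any library and 0 in 27 of 75, and it failed the filter on low counts in all 3 experiments. Its mean was 2.48 ± 2.63 CPM (SD, n = 8) in IgG CL and 1.70 ± 1.98 (n = 8) in IgG UUO, and no change was detectable at this depth.

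**Figure D1:**
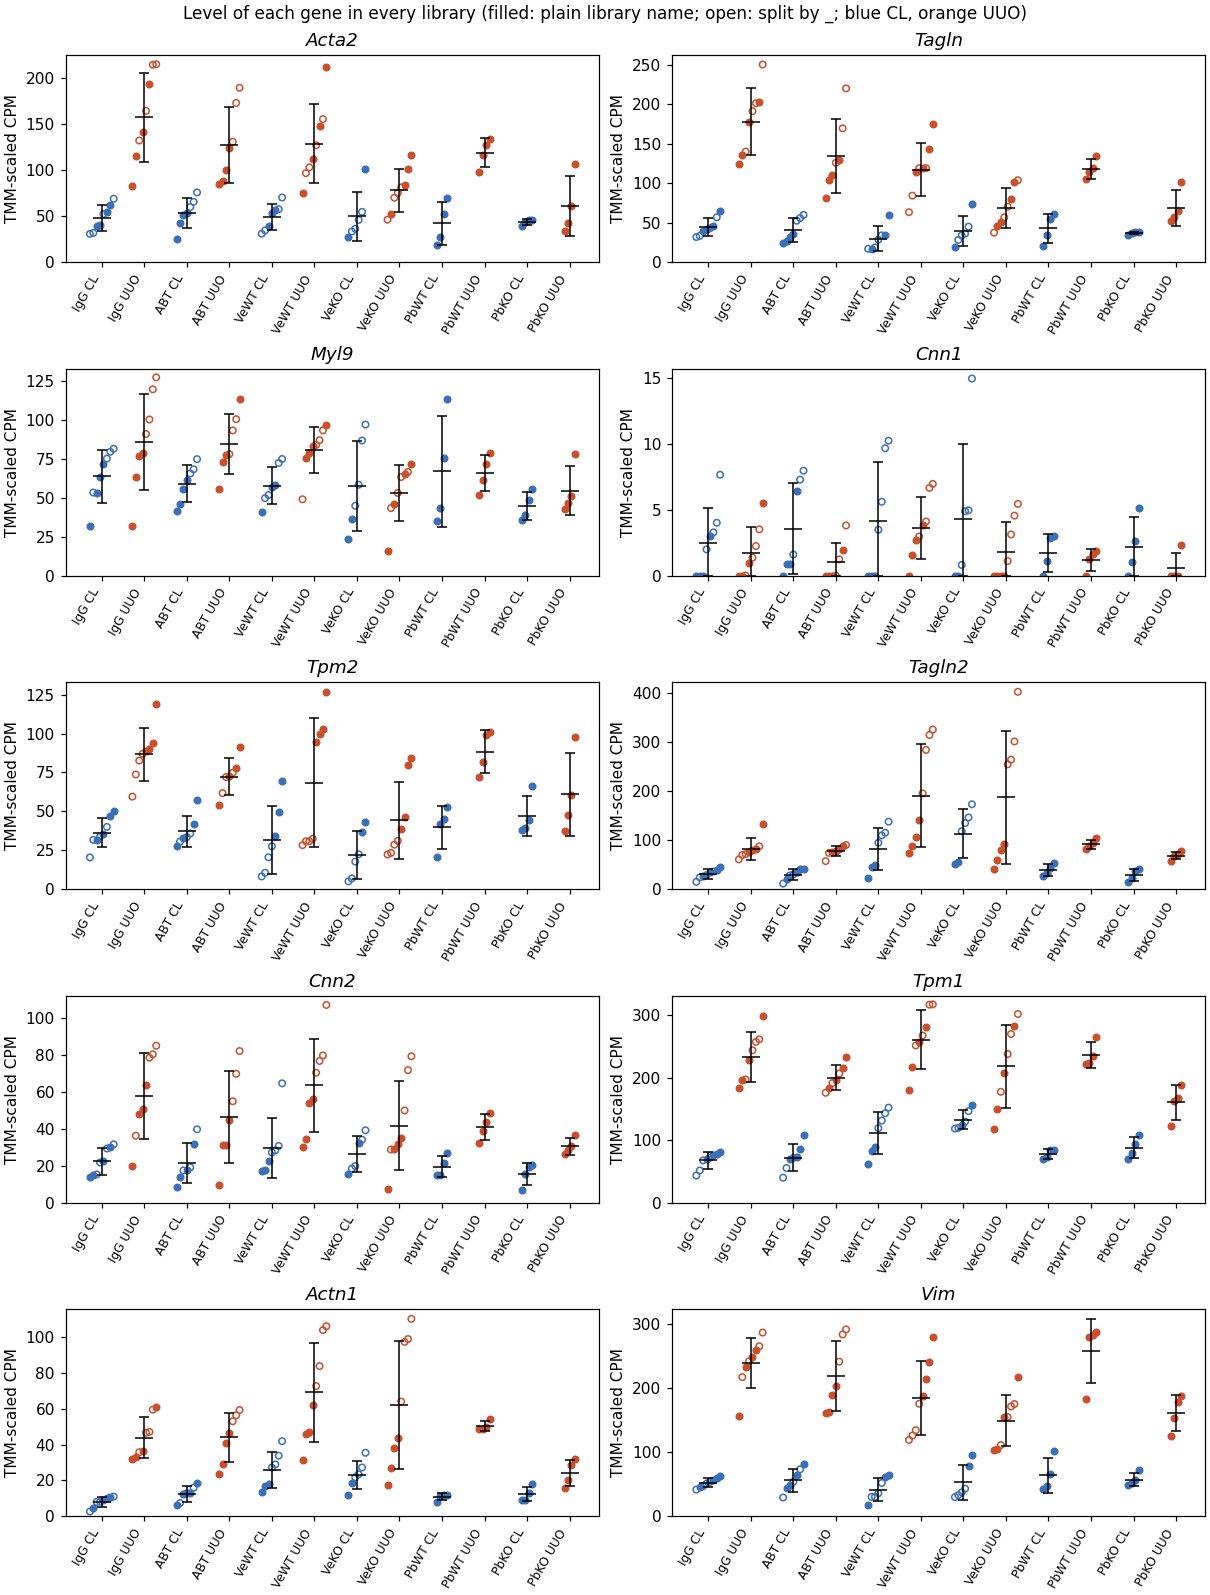
Level of the 10 genes in each of the 75 libraries (vertical axes, TMM-scaled CPM from 0; horizontal axes, the 12 groups), with the group mean and SD in black, the SD bar stopping at 0. Filled points are plain-named and open points split-named libraries. Acta2 reached 82.4 to 214 in IgG UUO against 30.5 to 68.6 in IgG CL, whereas Cnn1 stayed under 15.0 throughout.

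All 4 broadly expressed actin-binding genes rose in IgG UUO. Tagln2 (ENSMUSG00000026547.15, chr1:172500047-172507380, plus strand), the transgelin of leukocytes and epithelia, was 14.7 to 45.8 CPM (median 31.2) in CL and 60.3 to 133 (median 77.1) in UUO, 2.59-fold higher (adjusted p = 2.01e-06). Cnn2 (ENSMUSG00000004665.10, chr10:79988584-79996062, plus strand), the calponin of nonmuscle cells, was 14.1 to 31.6 CPM (median 22.2) against 19.7 to 85.1 (median 57.2), and 7 of 8 obstructed kidneys exceeded every CL kidney (2.51-fold, adjusted p = 0.000761). Tpm1 (ENSMUSG00000032366.15, chr9:67022590-67049406, minus strand), the α-tropomyosin, was 43.3 to 81.5 CPM (median 71.2) against 183 to 298 (median 236), with no overlap (3.42-fold, adjusted p = 5.13e-11).

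Actn1 and Vim had the largest fold changes of the set in this comparison. Actn1 (ENSMUSG00000015143.15, chr12:80167547-80260371, minus strand), which crosslinks actin at adhesions and stress fibers, rose from 2.55 to 10.9 CPM (median 8.44) in CL to 31.7 to 60.8 (median 41.6) in UUO, 5.14-fold (log2 2.36 ± 0.24, adjusted p = 2.22e-09). Its CL values rest on 1 to 12 counts per library. Vim (ENSMUSG00000026728.9, chr2:13573927-13582826, plus strand) rose from 41.5 to 62.2 CPM (median 52.1) to 157 to 287 (median 246), 4.53-fold (log2 2.18 ± 0.17, adjusted p = 6.00e-12). Neither gene overlapped between the kidneys.

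In ABTAA-treated mice the same 8 genes passed in the same direction (8 of 9 tested, against 12.6% of all genes), with a median log2 fold change of 1.39 over the 9 members and -0.00 over all genes. Acta2 rose from 25.1 to 75.5 CPM (median 53.2) to 84.5 to 189 (median 123), a log2 fold change of 1.27 ± 0.22 (adjusted p = 5.19e-05). Tagln rose by 1.75 ± 0.22 and Tpm2 by 0.96 ± 0.17, and 1 of 7 obstructed kidneys fell within the CL range for Tpm2. Actn1 rose by 1.82 ± 0.23, Vim by 1.95 ± 0.18 and Tpm1 by 1.48 ± 0.16, all without overlap between the kidneys. Myl9 again missed the threshold (log2 0.51 ± 0.20, adjusted p = 0.0586). It passed without any one of ABT CL replicate 7 (0.57), ABT UUO replicate 3 (0.60) and IgG UUO replicate 4 (0.51), and also by DESeq2 and by edgeR's exact test, which each called 9 of 9 members.

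The direct comparison of ABT with IgG in the UUO kidney asked whether TIE2 activation lowered the genes. It called 0 of 9 members lower and 0 of 9579 genes in either direction (0% of all genes). At an unadjusted p under 0.05, 0 members and 340 of 9579 genes passed, and DESeq2 and the exact test also called 0 members. Acta2 was 157 ± 48.1 CPM in the 8 IgG libraries and 127 ± 40.9 in the 7 ABT libraries (mean ± SD), with each ABT library inside the IgG range, and its log2 fold change was -0.31 ± 0.21. Tagln was 178 ± 42.6 and 134 ± 46.4 CPM, 3 of 7 ABT libraries lay under every IgG library, and the value of -0.38 ± 0.20 had an unadjusted p of 0.0648 (adjusted p = 1.00). Over the 9 members the log2 fold changes ran from -0.38 to 0.02 with a median of -0.21, against 0.01 over all genes, and 8 of the 9 were negative. The signs of Tagln2, Vim, Myl9 and Actn1 changed with the form of library name, as given in the closing section. In the CL kidneys 0 members and 0% of all genes were called, while 303 of 9579 genes were under an unadjusted p of 0.05. Among the members 1 was under it, Actn1 (7.94 ± 2.98 CPM in IgG and 12.3 ± 4.30 in ABT, log2 0.56). DESeq2 gave it an unadjusted p of 0.0922, and the filter of the exact test left it out, and both tools called 0 members. The difference between the responses to UUO, ABT minus IgG, was called for 0 members and 0% of all genes, with 0 members and 315 of 9579 genes under an unadjusted p of 0.05. DESeq2 called 0 members, and the values ran from -0.54 (Actn1) to 0.07 (Myl9).

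**Figure D2:**
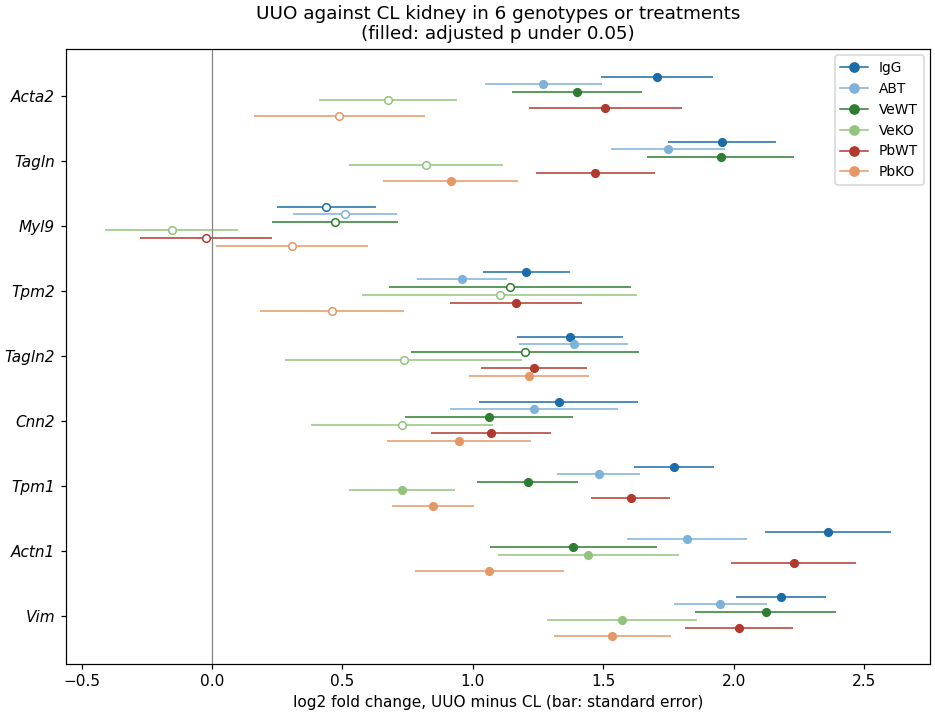
Log2 fold change of 9 genes in UUO against CL kidneys (horizontal axis, with the standard error as bar) for the 6 labelled genotypes or treatments, filled where the adjusted p was under 0.05. Myl9 is open throughout and lies between -0.15 and 0.51, whereas Vim is filled throughout and lies between 1.53 and 2.18.

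In the Veptp experiment the form of the library name separated the libraries more than obstruction did for some members. With form as a covariate in the fit, a comparison added after the data were seen, Tagln2 was higher in the split-named libraries by a log2 value of 1.71 ± 0.14 (adjusted p = 5.18e-13), Actn1 by 1.18 ± 0.14 and Cnn2 by 0.93 ± 0.19, while Tpm2 was lower, at -1.61 ± 0.17 (adjusted p = 4.18e-10). Of all genes, 62.4% differed between the forms here and 39.7% in the antibody experiment, where the largest difference of a member was that of Cnn2 (0.69 ± 0.18). Acta2 (-0.25 ± 0.16, adjusted p = 0.172) and Myl9 (0.23 ± 0.16, adjusted p = 0.22) did not pass in the Veptp experiment. Other measures moved with the form. Gm42418 and AY036118, which collect reads of ribosomal RNA, together took 9.18% to 21.8% of the counts of plain-named and 0.325% to 0.778% of those of split-named libraries here, and 7.32% to 18.7% against 3.89% to 5.91% in the antibody experiment. Of the libraries with both Xist and Y-linked counts, 22 were among the 45 plain-named and 2 among the 30 split-named ones. Their part in these values was not tested, and how the forms were prepared is not given in the sources used here. In VeWT CL, Tagln2 was 22.2 to 48.4 CPM in the 3 plain-named libraries and 94.2 to 137 in the 4 split-named ones, and Tpm2 was 34.1 to 69.4 and 8.10 to 27.5. Each form held libraries of all 4 groups, so the comparisons can be made within a form. One library, VeKO UUO replicate 1, also held skeletal muscle markers summing to 589 CPM, against at most 133 in any other library of the experiment.

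**Figure D3:**
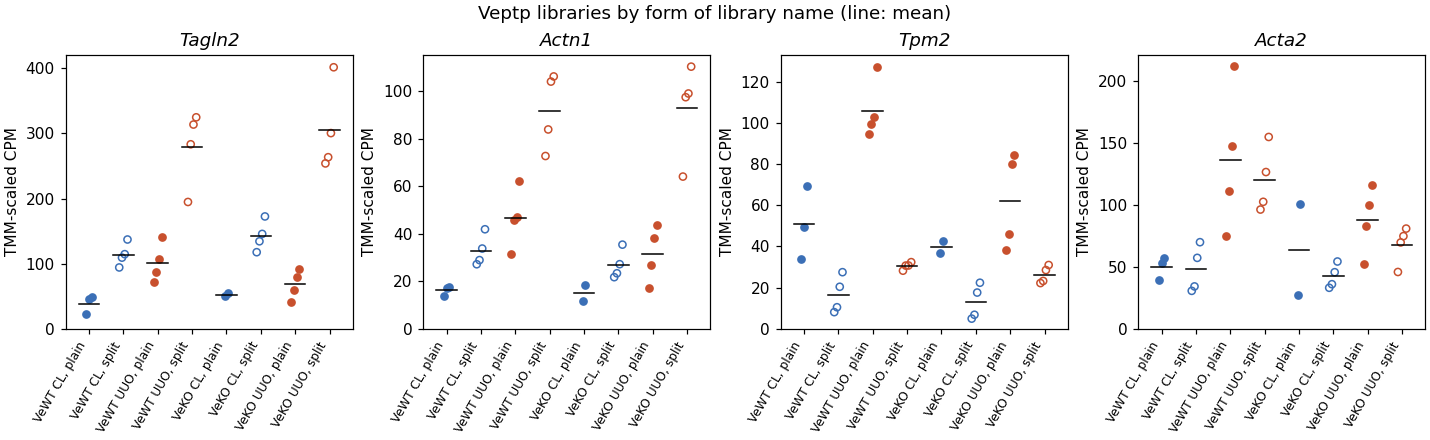
The genes Tagln2, Actn1, Tpm2 and Acta2 in the Veptp experiment (vertical axes, TMM-scaled CPM from 0), split by group and by form of library name, with a line at each mean. On average Tagln2 and Actn1 are higher and Tpm2 lower in split-named libraries in all 4 groups, and within each form the VeWT UUO values exceed VeWT CL on average in all 4 genes.

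In VeWT mice UUO raised 6 of the 9 members tested, against 10% of all genes, with a median log2 fold change of 1.21 over the 9. Acta2 ran from 30.7 to 70.0 CPM (median 53.2) in CL and from 75.3 to 212 (median 119) in UUO, without overlap (2.63-fold, SE of the log2 value 0.25, adjusted p = 0.000162). Tagln rose by 1.95 ± 0.28, Vim by 2.12 ± 0.27, Actn1 by 1.39 ± 0.32, Tpm1 by 1.21 ± 0.19 and Cnn2 by 1.06 ± 0.32. Cnn2 lost its call without VeWT UUO replicate 5 (0.91, adjusted p = 0.055). Tagln2 (2.30-fold, SE of the log2 value 0.44, adjusted p = 0.0529), Tpm2 (1.14 ± 0.46, adjusted p = 0.0878) and Myl9 (0.47 ± 0.24, adjusted p = 0.192) did not pass. DESeq2 and the exact test each called 7 members, with Tagln2 added (adjusted p = 0.0308 and 0.0153). Tpm2 passed without VeWT CL replicate 1 (adjusted p = 0.027), and Tagln2 without any one of VeWT CL replicate 7, VeWT UUO replicates 1, 2 and 3 and VeKO UUO replicates 3, 4 and 5 (adjusted p = 0.035 to 0.048). Within the libraries of either form, and with form as a covariate, 8 members were called, Myl9 being the exception. Without the 8 libraries of crossed numbers 5 were called. The shares of all genes called in the fits with form, within a form or without libraries are not given here.

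In VeKO mice 3 of 9 members were called higher, against 4.47% of all genes, and the median log2 fold change was 0.73. These were Vim (1.57 ± 0.29, adjusted p = 0.000686), Actn1 (1.44 ± 0.35, adjusted p = 0.00761) and Tpm1 (0.73 ± 0.20, adjusted p = 0.0213), and Tpm1 fell short without any one of VeKO CL replicates 3, 4 and 6 and VeKO UUO replicates 5 and 6 (0.64 to 0.71). Acta2 was 27.3 to 101 CPM (median 40.9) in VeKO CL and 45.9 to 116 (median 77.9) in VeKO UUO. The groups overlapped, with VeKO CL replicate 2, which held 22 counts of Acta2, above 7 of the 8 obstructed kidneys and VeKO CL replicate 3 (54.4 CPM) above 2 of them. In replicate 2 the injured tubule markers summed to 1787 CPM, the fibroblast and pericyte markers to 614 and the leukocyte markers to 440, the highest of the 6 VeKO CL libraries, whose medians were 694, 240 and 190, and their part in its values was not tested. The log2 fold change of Acta2 was 0.68 ± 0.27 (adjusted p = 0.123) and became 0.93 (adjusted p = 0.015) without that library, and that of Tagln went from 0.82 ± 0.29 (adjusted p = 0.0841) to 1.02 (adjusted p = 0.023), so that 5 members were called. DESeq2 called 4 members, with Tagln added (adjusted p = 0.0485), and the exact test 2, without Tpm1 (adjusted p = 0.0501). With form as a covariate 8 members were called, among them Acta2 at 0.66 and Tagln at 0.78. Within the split-named libraries 6 were called. Within the plain-named libraries, of which 2 were CL, the quasi-likelihood test called 0, and without the 8 libraries of crossed numbers it also called 0. The shares of all genes called in the fits with form, within a form or without libraries are not given here. These counts are therefore not read as a result about the members.

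VeKO against VeWT in the UUO kidney called 0 of 9 members lower and 0% of all genes. All 9 values were negative, from -0.77 to -0.00 with a median of -0.53, against 0.01 over all genes. Acta2 was 128 ± 42.9 CPM in the 8 VeWT libraries and 77.9 ± 23.2 in the 8 VeKO libraries (mean ± SD), and 4 of the 8 VeKO libraries lay under every VeWT library. Its log2 fold change of -0.73 ± 0.24 had an unadjusted p of 0.00416 (adjusted p = 1.00). Tagln (117 ± 33.8 and 68.3 ± 25.0 CPM, -0.77 ± 0.26) and Myl9 (80.9 ± 14.7 and 53.2 ± 18.1 CPM, -0.59 ± 0.24) were the other members under an unadjusted p of 0.05, at 0.00553 and 0.0183. Of all genes, 426 of 11916 were under it. Tagln2 was -0.00 ± 0.41 and Actn1 -0.10 ± 0.30. DESeq2 and the exact test also called 0 members, each with 3 under an unadjusted p of 0.05, and 1 and 4 of all genes. Within the forms Acta2 was -0.65 in plain-named and -0.83 in split-named libraries, and Tagln -1.01 and -0.55. The signs of Tagln2, Vim and Actn1 changed in the split-named libraries, as given in the closing section. The summed fibroblast and pericyte markers were 355 to 894 CPM in VeKO UUO and 898 to 1434 in VeWT UUO, without overlap, and the leukocyte markers 288 to 826 and 543 to 793. The leukocyte sums and those of all remaining marker lists overlapped. Their part in these values was not tested. In CL, 0 members and 0% of all genes were called, with 0 members and 229 of 11916 genes under an unadjusted p of 0.05 and 0 members called by the other tools. For the difference between the responses to UUO the count was 0 (0% of all genes) with 1 member, Tagln, under an unadjusted p of 0.05 (-1.13 ± 0.40), and DESeq2 called 0 with 2 under it. Of all genes, 323 of 11916 were under it in edgeR.

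In PbWT mice UUO raised 8 of the 9 members, against 17.9% of all genes, and the 8 did not overlap between the kidneys, as 16.9% of all genes had every UUO library above every CL library. Acta2 was 18.1, 69.6, 27.1 and 52.3 CPM in the 4 CL libraries and 116, 97.1, 127 and 134 in the 4 UUO libraries (log2 1.51 ± 0.29, adjusted p = 0.000201). Tagln was 20.3, 61.1, 34.6 and 54.4 CPM in CL and 114, 105, 118 and 135 in UUO (1.47 ± 0.23). Actn1 was 7.91, 11.4, 12.0 and 11.7 CPM in CL and 49.9, 48.6, 54.2 and 48.9 in UUO (2.23 ± 0.24), the largest change of the 9. Vim rose by 2.02 ± 0.21, Tpm1 by 1.61 ± 0.15, Tagln2 by 1.23 ± 0.20, Tpm2 by 1.16 ± 0.25 and Cnn2 by 1.07 ± 0.23. Myl9 was 35.0, 114, 43.6 and 75.8 CPM in CL and 51.8, 61.3, 71.6 and 78.9 in UUO, with a log2 fold change of -0.02 ± 0.25.

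In PbKO mice 6 of 9 members were called higher, against 3.95% of all genes. Vim was 52.1, 71.4, 48.5 and 56.9 CPM in CL and 126, 188, 153 and 179 in UUO (log2 1.53 ± 0.22, adjusted p = 9.18e-05). Tagln2 (1.21 ± 0.23), Tpm1 (0.85 ± 0.16), Actn1 (1.06 ± 0.28), Cnn2 (0.95 ± 0.28) and Tagln (0.91 ± 0.26) also rose. Acta2 was 45.6, 43.3, 39.3 and 45.7 CPM in CL and 61.2, 42.3, 34.0 and 106 in UUO, so that the UUO libraries lay on both sides of the CL libraries (0.49 ± 0.33, adjusted p = 0.435). Without PbKO UUO replicate 4, which held the value of 106, its log2 fold change was -0.05. Tpm2 (0.46 ± 0.28) and Myl9 (0.31 ± 0.29) did not pass either. The count was 3 without PbKO CL replicate 3, PbKO CL replicate 4 or PbKO UUO replicate 4, each of which took the calls of Tagln, Cnn2 and Actn1. The remaining calls, of Vim, Tagln2 and Tpm1, held without any one library. DESeq2 called 4 members, without Actn1 and Cnn2 (adjusted p = 0.0547 and 0.0645), and the exact test 5, without Actn1 (adjusted p = 0.0682). The count was also lower in the fit over all 12 groups and after thinning, as given in the closing section.

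The comparison of PbKO with PbWT in the UUO kidney asked whether the genes were lower in mice in which deletion of Pdgfb was induced. It called 5 of 9 members lower, against 6.6% of all genes, and all 9 values were negative, with a median of -0.56 against -0.02 over all genes. Actn1 was 20.4, 28.6, 15.7 and 31.8 CPM in PbKO UUO against 48.6 to 54.2 in PbWT UUO, 0.491-fold (log2 -1.03 ± 0.20, adjusted p = 0.000798). Acta2, with the UUO values above, was 0.521-fold (-0.94 ± 0.28, adjusted p = 0.0197), and 3 of the 4 PbKO libraries lay under every PbWT library. Tagln was 64.6, 57.1, 51.4 and 101 CPM, under the 105 to 135 of PbWT (-0.76 ± 0.22, adjusted p = 0.0148). Tpm1 was 163, 168, 122 and 189 CPM against 265, 234, 223 and 222, with no overlap (-0.56 ± 0.14, adjusted p = 0.00727). Vim was 126 to 188 CPM against 288, 281, 184 and 284, with PbWT UUO replicate 3 inside the PbKO range (-0.65 ± 0.19, adjusted p = 0.0181).

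The other members were Tpm2 (-0.49 ± 0.24, adjusted p = 0.167), Cnn2 (-0.42 ± 0.21, adjusted p = 0.181), Tagln2 (-0.39 ± 0.19, adjusted p = 0.161) and Myl9 (-0.24 ± 0.26, adjusted p = 0.575). The count was 2, Actn1 and Tpm1, without PbKO UUO replicate 3, and 3 without PbKO UUO replicate 2 or PbWT UUO replicate 4. Acta2, Tagln and Vim each lost the call without at least 1 library (Acta2 also without PbWT UUO replicate 4, Vim also without PbWT UUO replicate 1, 2 or 4), and Actn1 and Tpm1 kept theirs without any one. DESeq2 and the exact test called 5, and a fit over all 12 groups, in which the groups of the other experiments share the spread, called 0 (Actn1 -1.04, adjusted p = 0.0849). All genes split into 1314 higher and 721 lower in this comparison with TMM, and into 657 higher and 2502 lower without it, when the median of all genes was -0.29. Without TMM 8 members were called. Beside these values, the summed level of 8 leukocyte markers was 313 to 390 CPM in PbKO UUO and 500 to 816 in PbWT UUO, that of 10 fibroblast and pericyte markers 364 to 806 and 872 to 1190, and that of 7 smooth muscle markers 51.4 to 82.0 and 94.0 to 136. The sum of 8 injured tubule markers was 2078 to 2635 CPM in PbKO UUO and 3236 to 3775 in PbWT UUO. Markers of uninjured tubule ran the other way, with 8 proximal tubule markers at 3100 to 5607 CPM in PbKO UUO against 1691 to 2561 and 6 distal nephron markers at 3771 to 5471 against 2193 to 2565, and 7 of the 8 and 5 of the 6 were called higher. None of these 6 sums overlapped, whereas those of endothelial, podocyte, skeletal muscle and adipocyte markers did. The endothelial sum had a median of 182 CPM in PbKO UUO and 305 in PbWT UUO. Among its genes Cdh5 (-0.86, adjusted p = 0.0100) and Pecam1 (-0.90, adjusted p = 0.0131) were called lower, and Egfl7 (-0.35) and Kdr (-0.29) did not pass. No marker of these lists was at 0 in either group, and their part in the result was not tested.

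**Figure D4:**
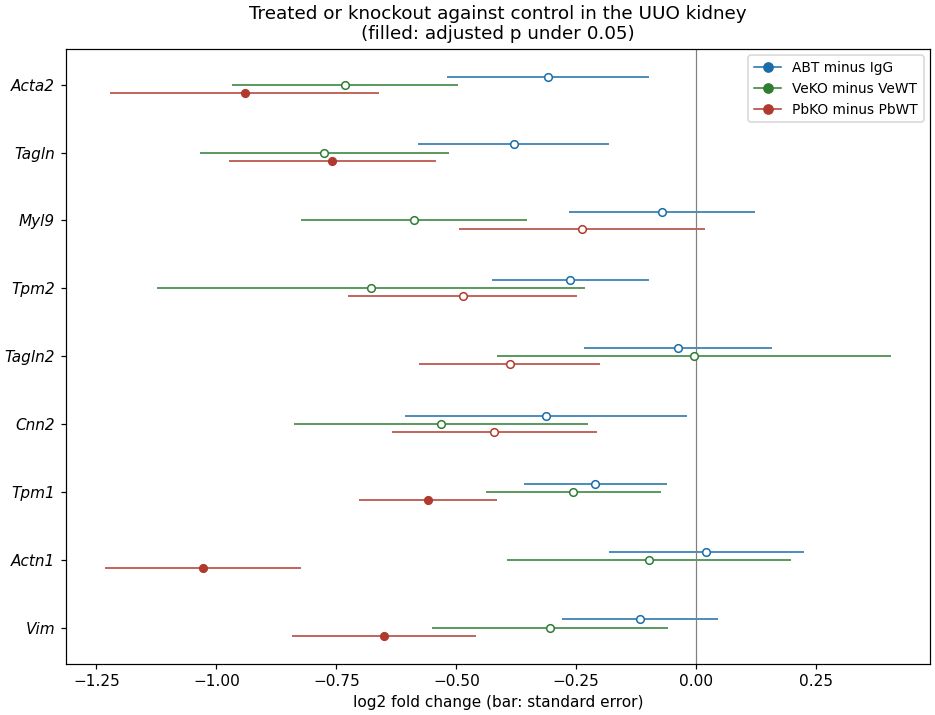
Log2 fold change of 9 genes in the UUO kidney for ABT minus IgG, VeKO minus VeWT and PbKO minus PbWT (horizontal axis, with the standard error as bar), filled where the adjusted p was under 0.05. The filled points are Acta2, Tagln, Tpm1, Actn1 and Vim in the PbKO comparison, between -1.03 and -0.56.

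In the CL kidneys PbKO and PbWT differed in 0 members and 0% of all genes, with 0 members and 379 of 10923 genes under an unadjusted p of 0.05. DESeq2 and, over the 8 members it tested, the exact test called 0 members. The difference between the responses to UUO, PbKO minus PbWT, was called for 1 member, Tpm1, and for 8.55% of all genes. Tpm1 rose by a log2 value of 1.61 in PbWT and of 0.85 in PbKO, a difference of -0.76 ± 0.22 (adjusted p = 0.0304). It missed the threshold without any one of PbWT CL replicate 3, PbKO CL replicates 2 and 4, PbWT UUO replicates 1 and 2 and PbKO UUO replicate 3 (-0.76 to -0.61). Without PbKO UUO replicate 4 the count was 3, and in the fit over all 12 groups the call of Tpm1 was lost. Actn1 differed by -1.17 ± 0.39 (adjusted p = 0.0671) and Acta2 by -1.02 ± 0.44 (adjusted p = 0.169), which did not pass. The skeletal muscle markers, genes that kidney cells do not normally use, summed to 37.0 to 99.2 CPM in PbWT CL and 95.1 to 120 in PbKO CL but 3.00 to 24.3 and 4.78 to 71.4 in the UUO groups. Tpm1 and Tpm2 are also transcribed in skeletal muscle, and the part of such RNA in their values was not tested.

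Within a family, a member listed with the smooth muscle genes was set against one listed as broadly expressed. The measure was the log2 ratio of CPM + 1, in which the scaling of the library largely cancels. The listing is not exclusive, since Tpm1 is also transcribed in muscle. Over 27 exact two-sided permutation tests, 2 passed after adjustment, both for UUO against CL in ABT mice. The ratio of Tpm2 to Tpm1 was lower in UUO by 0.56 (mean difference -0.56, n = 7 and 7, exact p = 0.00175, adjusted p = 0.0236), and in IgG mice the difference was -0.53 (n = 8 and 8, exact p = 0.00653, adjusted p = 0.0587). In PbWT and PbKO mice it was -0.40 and -0.55 (n = 4 and 4 each, exact p = 0.229 and 0.0857, where 0.0286 is the smallest p possible). The ratio of Cnn1 to Cnn2 was lower in ABT UUO by 2.03 (difference -2.03, exact p = 0.000583, adjusted p = 0.0157), but Cnn1 lay near 0 counts, and this value was -2.38 with a pseudocount of 0.5 CPM (adjusted p = 0.0551). Within the forms, the ratio of Tpm2 to Tpm1 differed by -0.41 in plain-named and -0.76 in split-named ABT libraries and that of Cnn1 to Cnn2 by -1.41 and -2.87, and none passed, where 3 against 3 split-named libraries allow no p under 0.1. Both ABT results fell short of the threshold without any one of ABT CL replicates 2, 4, 5, 6 and 7 (adjusted p = 0.0551 to 0.0587), and the ratio of Tpm2 to Tpm1 also without any one of ABT UUO replicates 1, 3, 4, 6 and 7. The ratio of Tagln to Tagln2 passed in no comparison, and its largest difference was 0.79 in VeWT mice (exact p = 0.229). Its lowest exact p was 0.0407, in IgG mice (difference 0.58, adjusted p = 0.183). None of the 9 ratios between treated and control mice in UUO passed.

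Across the 39 UUO libraries, the deviations of log2 CPM from the mean of each group and form were compared between genes, as a description without a test, since library depth and the makeup of the tissue piece are shared by all genes of a library. Of 8034 genes with a mean of at least 20 CPM, those most like Acta2 included Tpm2 (Pearson's r = 0.67), Pdgfrb (0.64), Sorbs2 (0.63) and Tagln (0.63). Pdgfrb is the PDGF receptor of pericytes and fibroblasts, and Sorbs2 encodes an adaptor of actin filaments. Actn1 ranked 23rd (0.55) and Myl9 54th (0.51), whereas Tagln2 (0.10) and Cnn2 (-0.07) ranked 2475th and 4901st. Tagln varied most with Tpm1 (0.72) and Tpm2 (0.67), and Tpm1 with Vim 0.64. Cnn2 reached at most 0.03 with any other member, the value with Tagln.

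**Figure D5:**
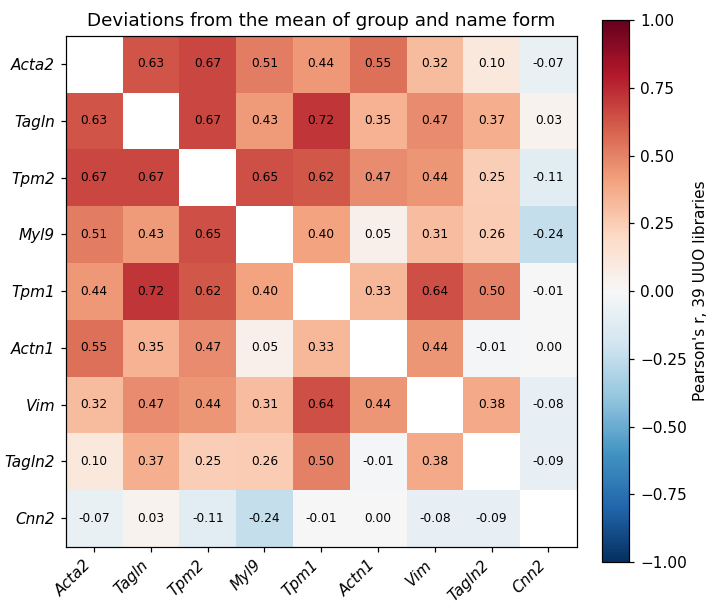
Pearson's r between 9 members across the 39 UUO libraries, after subtraction of the mean of each group and form of library name; both axes list the genes and the color scale runs from -1 to 1. Acta2, Tagln, Tpm2 and Myl9 share values of 0.43 to 0.67, and Cnn2 lies between -0.24 and 0.03 with every other gene.

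The counts of listed genes that follow stand beside the shares of all genes called higher in UUO than CL, which were 16.3% in IgG (18.2% lower), 12.6% in ABT, 10% in VeWT, 4.47% in VeKO, 17.9% in PbWT and 3.95% in PbKO, and beside 6.6% lower and 12% higher in PbKO than in PbWT in UUO. Under an unadjusted p of 0.05 in edgeR lay 4132 of 9579 genes in IgG and 3367 in ABT. The counts were 2409 of 11916 in VeKO and 2171 of 10923 in PbKO. Between treated and control UUO kidneys they were 340 of 9579 for ABT and 426 of 11916 for VeKO. Other genes of the contractile apparatus changed in part, in a list that shares Myh11, Actg2, Des, Lmod1, Smtn and Synpo2 with the smooth muscle markers below. Of 16 listed, 11 had enough counts in the antibody experiment, and 6 were called higher and 0 lower in IgG UUO against CL, 6 in ABT, 5 of 14 in VeWT, 3 of 14 in VeKO, 9 of 14 in PbWT and 5 of 14 in PbKO. Flna, the actin crosslinker filamin A, rose by a log2 value of 1.84 in PbWT and 0.95 in PbKO mice, Tpm4, a nonmuscle tropomyosin, by 1.47 and 0.92, Pdlim7 by 2.05 and 1.56, and Cald1, caldesmon, by 1.41 and 0.56. In IgG mice the values were 2.13, 1.87, 2.16 and 1.37. Myh11, the smooth muscle myosin heavy chain, did not pass in any of the 6 comparisons (-0.67 to -0.30). In the UUO kidney 0 of these genes were called between ABT and IgG or between VeKO and VeWT (edgeR, with 1 of 11 and 2 of 14 under an unadjusted p of 0.05), and 7 of 14 were lower in PbKO than in PbWT, such as Flna (-0.76), Cald1 (-0.75), Tpm4 (-0.75) and Mylk, the kinase of the myosin light chain (-0.62).

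Regulators and targets of SRF and MRTF rose in 6 of 6 tested genes in IgG, 4 of 6 in ABT, 5 of 8 in VeWT, 3 of 8 in VeKO, 6 of 7 in PbWT and 0 of 7 in PbKO (edgeR, with 5 of 7 under an unadjusted p of 0.05). Ccn1, a matricellular target, rose by a log2 value of 1.95 in PbWT and had 0.65 in PbKO (adjusted p = 0.228). Vcl, vinculin, rose by 1.14 in PbWT and had 0.40 in PbKO (adjusted p = 0.188). In IgG mice Ccn1 rose by 2.30 and Vcl by 1.33. In the UUO kidney 5 of 7 were lower in PbKO than in PbWT, among them Ccn1 (-0.85, adjusted p = 0.0177), Mrtfb (-0.83, adjusted p = 0.0103), Vcl (-0.57, adjusted p = 0.00786) and Ccn2 (-0.51, adjusted p = 0.0341). Between ABT and IgG 0 of 6 were called in UUO, and between VeKO and VeWT 0 of 8 (edgeR, with 1 and 0 under an unadjusted p of 0.05).

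Markers of the cells that could carry the members moved too. Of the fibroblast and pericyte markers, 6 of 7 rose in IgG, 6 of 7 in ABT, 8 of 10 in VeWT, 2 of 10 in VeKO, 6 of 8 in PbWT and 2 of 8 in PbKO, and their sum was 183 to 332 CPM in IgG CL and 918 to 1370 in IgG UUO. Col1a1, a chain of the main fibrillar collagen, rose by a log2 value of 3.66 and Pdgfrb by 1.77 in IgG, and in UUO both were lower in PbKO than in PbWT (adjusted p = 0.00708 for Col1a1, and log2 -0.97, adjusted p = 0.00239, for Pdgfrb). The sum of 7 smooth muscle markers overlapped between the kidneys, at 59.1 to 127 CPM in IgG CL and 80.4 to 127 in IgG UUO, and 0 of its 2 tested genes passed in IgG (edgeR, 0 under an unadjusted p of 0.05). The count was 0 of 2 in ABT (1 under it), 1 of 4 in VeWT, 0 of 4 in VeKO (0 under it), 3 of 4 in PbWT and 0 of 4 in PbKO (0 under it), and 3 of 4 were lower in PbKO than in PbWT in UUO. The 3 in PbWT, named after their values were seen, were Synpo2 (1.36), Des, the intermediate filament desmin (1.17), and Smtn, smoothelin (0.55), and the one in VeWT was Des (1.04). The same 3 genes were the ones lower in PbKO UUO (-1.14, -1.36 and -0.73). All 3 are also in the list of other contractile genes, so their calls are counted in both lists. In IgG, 8 of 8 leukocyte and 8 of 8 injured tubule markers rose, 8 of 8 proximal tubule and 5 of 6 distal nephron markers fell, 2 of 8 endothelial, 1 of 5 podocyte and 1 of 2 adipocyte markers were called higher, the first 2 of these shares lying near that of all genes, and no skeletal muscle marker was tested. The part of these cells in the values of the 10 genes was not tested.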

How the data were processed

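The authors sequenced whole-kidney RNA on 1 lane, pooling 4 wells per sample, and deposited a table of raw counts per gene: per the labels, reads were aligned with STAR 2.7.3a to mm10, deduplicated by molecular identifier with UMI-tools 1.1.4 and counted with featureCounts (Subread 1.4.6-p5). The annotation, strand setting and treatment of reads that match several genes are not given in the sources used. Near-identical actins (Acta1, Actg2, Actc1) may therefore share reads with Acta2.

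The 10 genes were taken by symbol from the table. They, and all gene lists, were chosen with earlier results of these data known. All genes were fitted with edgeR 4.0.16 (R 4.3.3), 1 quasi-likelihood model per experiment over its 4 groups, after TMM and removal of genes with low counts (filterByExpr). The p-values were adjusted by Benjamini-Hochberg over all genes tested, and 0.05 was the threshold. Alternatives to this test were the exact test of edgeR, which the study used, and DESeq2 1.42.0. The standard error is the log2 fold change divided by the square root of F. Family ratios used a pseudocount of 1 CPM. The fit was tested on simulated counts that held no effect of the form of library name and no pairing of kidneys. That test therefore does not check the fit for these features. Totals of 172827 to 2341800 counts set the precision, and p-values measure the spread between libraries. The paper gives fewer VeWT mice than there are VeWT UUO libraries, so not all libraries may come from separate animals.

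Besides the 10 genes, the deleted genes and the 5 genes most like Acta2 (1 of which is not reported here), the genes named were up to 4 of each list with the lowest adjusted p in IgG UUO against CL, and up to 4 that passed in a treated against a control group in UUO. Same-numbered ABT CL and ABT UUO libraries (9, 11 and 12) correlated in their deviations (r = 0.389, 0.203 and 0.161). Other pairs had -0.123 on average, a value that subtracting the mean of 3 libraries per group largely sets. The numbers were treated as pairs by a rule on these data and not by the labels, and whether they mark animals was not tested. Alternatives covered normalization, filters, the test, the libraries fitted, depth, form of library name, replicate block and each library left out.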

Additional observations from a re-analysis of the deposited data

Results flagged for a closer look

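In 7 of 108 sets of 4 to 8 libraries (9 members in 12 groups), the highest or lowest library stood apart from the rest by Dixon's test, which flags about 1 set in 20 by chance. The highest Acta2 level in VeKO CL was 101 CPM, in replicate 2 with 22 counts, with the next library at 54.4. The highest Tagln level in VeWT CL was 59.7 CPM in replicate 1 (next 34.2), and the highest Cnn2 level in the same group was 64.7 CPM in replicate 5 (next 30.7). The lowest Myl9 level in VeWT UUO was 49.0 CPM in replicate 8 (next 75.3). The highest Tagln2 level in IgG UUO was 133 CPM, in replicate 4 with 21 counts (next 87.0). In the Pdgfb experiment, the lowest Actn1 level in PbWT CL was 7.91 CPM in replicate 1 with 7 counts (next 11.4), and the lowest Vim level in PbWT UUO was 184 CPM in replicate 3 with 455 counts (next 281). The response of Tpm1 to UUO differed between PbKO and PbWT mice by a log2 value of -0.76 in a test of the difference itself (edgeR, adjusted p = 0.0304).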

How the results depend on the processing

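The counts of members called were within 1.5 times the main count in 137 of 153 alternatives that kept all libraries or changed the fit, and in 361 of 375 that left out 1 library. Depth limits the members unequally: Tpm1 had at least 10 counts in all 75 libraries, Cnn2 in 60, Actn1 in 50 and Cnn1 in 5. The 7 comparisons with 0 members called had 0 in every alternative run. The cause of the changes below was not tested, and counts over all genes are given beside them only for the fits without TMM.

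For UUO against CL in VeKO mice, 3 members were called. The count was 5 with all 12 groups in 1 fit, 1 after thinning to the shallowest library, 8 with form of library name as a covariate, 0 in plain-named and 6 in split-named libraries, 6 in the 16 numbered libraries, 8 with the replicate block in them, 0 without the 8 libraries of crossed numbers, and 2 to 5 with 1 library left out. For PbKO mice, with 6 called, it was 2 with all 12 groups, 3 after thinning and 3 to 6 with 1 left out. For PbKO against PbWT in UUO, with 5 called, it was 8 without TMM, 0 with all 12 groups and 2 to 6 with 1 left out. For the difference between the responses it was 1, and it was 2 without TMM, 2 without a filter, 2 at a mean count of at least 20, 0 with all 12 groups and 0 to 3 with 1 left out.

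The Veptp numbers 1 to 8 do not pair the libraries by the rule used, which asks for a correlation over 0.1 in every pair. Same-numbered libraries correlated at 0.0575 (number 5) to 0.425, against -0.0332 on average for other numbers, and 4 of 8 matched best with their own number, a hint of pairing from the data. Of these 4, numbers 3, 7 and 8 carry different genotypes on the CL and UUO kidney, so if the numbers mark animals, 1 of the 2 labels would be in doubt. The labels were kept as given. In the 16 numbered libraries the replicate block gave 7 members for VeWT (8 without it) and 8 for VeKO (6 without it). The paired fit of the 6 numbered ABT libraries gave 8 with and without the block and changed no call.

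Without TMM the median log2 fold change of all genes moved from 0.02 to 0.23 in IgG, 0.04 to 0.41 in PbWT and -0.02 to -0.29 in PbKO against PbWT. The genes higher and lower were 1561 and 1740 with TMM and 2493 and 1086 without in IgG, 1210 and 1197 against 1592 and 796 in ABT, 1195 and 999 against 1388 and 543 in VeWT, 533 and 415 against 613 and 242 in VeKO, 1959 and 2118 against 4453 and 1153 in PbWT, 432 and 264 against 567 and 152 in PbKO, and 727 and 207 against 312 and 668 for the difference between PbKO and PbWT responses.

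Values under a log2 size of about 0.5 changed sign as follows. ABT against IgG in UUO: Tagln2 was 0.0229 after thinning, 0.0673 in split-named libraries and -0.0854 to 0.0585 with 1 left out. Vim was 0.11 in split-named libraries. Myl9 was 0.18 in plain-named libraries and -0.16 to 0.0270 with 1 left out, and Actn1 -0.18 in plain-named libraries and -0.0643 to 0.13 with 1 left out. UUO against CL: Myl9 in VeWT was -0.0307 with the replicate block. In VeKO it was 0.22 after thinning, 0.77 in plain-named libraries, 0.0225 with the block, 0.0568 without the crossed numbers and -0.31 to 0.0405 with 1 left out. In PbWT it was 0.37 without TMM, 0.0213 at a mean count of at least 20 and -0.25 to 0.33 with 1 left out. Acta2 in PbKO was -0.0468 to 0.71 with 1 left out. VeKO against VeWT in UUO: Tagln2 was 0.0138 without a filter, 0.00147 with the compared groups alone, 0.0233 with all 12 groups, 0.0861 after thinning, 0.12 in split-named libraries, 0.18 without the crossed numbers and -0.26 to 0.15 with 1 left out. Vim was 0.14 in split-named libraries. Actn1 was 0.0916 after thinning, 0.00681 in split-named libraries and -0.27 to 0.0194 with 1 left out.

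Of the ratios, Cnn1 to Cnn2 was -0.10 (pseudocount 0.5), -0.17 (split-named) and -0.16 to 0.30 (1 left out) for ABT against IgG. It was 0.31 (pseudocount 5) and 0.11 (split-named) for VeKO against VeWT, and 0.21 (pseudocount 5) and -0.64 to 0.085 (1 left out) for PbKO against PbWT. In plain-named libraries it was 0.27 in VeWT and 0.00886 in VeKO for UUO against CL. Tagln to Tagln2 was -0.16 in ABT and -0.27 in VeKO in split-named libraries. Tpm2 to Tpm1 in split-named libraries was 0.21 for ABT against IgG and 0.0217 for VeKO against VeWT. With 1 left out it was -0.11 to 0.0501 for ABT against IgG, -0.39 to 0.19 in VeWT and -0.21 to 0.0577 for PbKO against PbWT. At a pseudocount of 5 the IgG and VeWT ratios of Cnn1 to Cnn2 and the IgG ratio of Tpm2 to Tpm1 passed.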
